A study of Mus musculus with 6 samples.

Results

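The salt-inducible kinases, the CRTC coactivators and the CREB family of transcription factors are the last steps of cyclic AMP signalling before transcription. The 10 genes described here were chosen by symbol: the kinases Sik1, Sik2 and Sik3, the coactivators Crtc1, Crtc2 and Crtc3, the factors Creb1, Crem and Atf1, and the acetyltransferase Crebbp. They are 10 of 55573 genes in the deposited tables, and all 10 were among the 16493 genes that passed the filter on low counts. The samples are 3 from wild-type (WT) and 3 from Abcc4-/- mice, each carrying the label megakaryocytes, the marrow cells that shed platelets, and their polyadenylated RNA was sequenced. Abcc4 encodes a membrane transporter that exports cyclic nucleotides and nucleotide-type drugs. The labels give no treatment, age or strain, and do not say how the allele was made, so the only contrast is genotype. The titles also contain CD41, an integrin subunit of megakaryocytes and platelets encoded by Itga2b, but no step for selecting cells is described. Whether each sample is a separate animal is not stated either, so the p-values cover only the spread among the 6 samples, some or all of which may be technical.

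As background, cyclic AMP activates protein kinase A, which phosphorylates CREB and also phosphorylates the salt-inducible kinases. An active salt-inducible kinase phosphorylates CRTC proteins, and phosphorylated CRTC is held in the cytoplasm by 14-3-3 proteins. When the kinases are inhibited, or when calcineurin removes the phosphate, CRTC enters the nucleus and joins CREB on cyclic AMP response elements. Sik1 is itself a known CREB target, whereas Sik2 and Sik3 are expressed in many tissues without such induction.

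The libraries held 50440283 to 55123551 counts in WT and 67009967 to 99294510 in Abcc4-/-. Abcc4 itself stood at 74.2, 71.8 and 75.7 CPM (counts scaled to library size) in WT and at 60.1, 60.5 and 62.3 in Abcc4-/-. The groups did not overlap, but most of the Abcc4 signal was still present in the mutant libraries (log2 fold change -0.28, adjusted p = 0.00260, edgeR). The labels do not name the exons that the allele lacks. Of the 11 megakaryocyte markers, 8 were lower and 1 was higher, and their summed level was 217 to 273 CPM in WT and 124 to 159 in Abcc4-/-. Itga2b, the gene of CD41, was among the lower ones, at 158 ± 17.3 CPM in WT and 96.1 ± 13.8 in Abcc4-/- (SD, n = 3 each). Its log2 fold change was -0.72 (edgeR adjusted p = 0.0106). The 11 neutrophil markers summed to 22700 to 29464 CPM in WT and to 39927 to 42519 in Abcc4-/-, with 8 higher and 1 lower. The 7 monocyte and macrophage markers summed to 13168 to 14917 CPM in WT and 12889 to 13906 in Abcc4-/-, with 0 higher and 4 lower. Markers were counted as higher or lower at an edgeR adjusted p below 0.05, where 8.61% of all tested genes were higher and 8.68% lower. B lineage markers summed to 453 to 646 CPM in WT and 891 to 994 in Abcc4-/-, with 7 of 9 higher and 0 lower. T cell markers summed to 21.7 to 25.7 CPM in WT and 32.3 to 43.4 in Abcc4-/-, with 4 of 5 higher and 0 lower. Erythroid markers summed to 251 to 285 CPM in WT and 218 to 297 in Abcc4-/-, with 2 of 6 higher and 0 lower. The largest parts of these last 2 sums were Cd4 (mean 13.9 CPM in WT, 14.1 in Abcc4-/-) and Hba-a1 (179 and 164), neither of them called. Every marker was detected in every library, and in each of the 6 the neutrophil sum was above the megakaryocyte sum. In these bulk samples, fewer cells of a type and less RNA per cell cannot be told apart. The part of these markers in the results below was not tested.

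The cyclic AMP response element is the palindrome TGACGTCA, and its shorter form is TGACG, or CGTCA on the other strand. Both were searched in the 250 bases before each RefSeq start on GRCm38.p6, where any full element also counts as a short one. Of all 32851 windows, 1.55% held the full element and 17.8% the short one, and of the 27025 genes with windows, some with several starts, 1.77% and 19.8% did. Promoter windows were found for 7 of the 10 genes: Sik2, Sik3, Crtc1, Crtc3, Creb1, Atf1 and Crebbp. None of the 7 held the full element, and 2 held the short one: Sik3 with 3 copies at 133, 116 and 57 bases before the start, and Atf1 with 1 copy at 90 bases. The CREB target genes had 38 windows, of which 7.89% held the full element and 57.9% the short one. Genes may be listed as targets because of this motif, so these shares are a description and not a test. These windows belong to 24 of the 29 target genes, and the rest, Ier2 among them, had no window to search. Of the 24 genes, 3 held the full element (Btg2, Dusp1 and Areg) and 19 the short one. A match is a description of the letters and not evidence of binding, and its absence says only that these letters are not in the window.

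The windows of Sik3 and Atf1 are shown because they hold the motif among the 7 genes with windows. Sik1, Crtc2 and Crem had no window to search. Those of 5 target genes are shown for comparison of a full element with the short one. The Sik3 window is chr9:46012570-46012819 on the plus strand and the Atf1 stretch is chr15:100227739-100227806 on the plus strand. All are written 5′ to 3′ in the direction of the gene, in lower case with the motif in capitals.
Sik3: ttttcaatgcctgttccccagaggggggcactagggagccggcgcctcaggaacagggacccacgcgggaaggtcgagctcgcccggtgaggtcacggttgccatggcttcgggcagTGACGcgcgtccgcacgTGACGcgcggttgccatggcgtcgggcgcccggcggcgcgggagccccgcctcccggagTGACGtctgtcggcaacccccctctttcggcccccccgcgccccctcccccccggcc
Atf1: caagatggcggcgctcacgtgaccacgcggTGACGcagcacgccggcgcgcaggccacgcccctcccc
The full element is seen in Btg2 (chr1:134079284-134079351, minus strand), Dusp1 (chr17:26508578-26508645, minus strand) and Areg (chr5:91139508-91139575, plus strand).
Btg2: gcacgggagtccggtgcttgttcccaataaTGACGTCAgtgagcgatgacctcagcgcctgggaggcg
Dusp1: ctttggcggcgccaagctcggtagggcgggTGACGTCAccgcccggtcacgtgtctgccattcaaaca
Areg: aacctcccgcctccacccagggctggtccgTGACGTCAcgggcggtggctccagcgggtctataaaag
The short motif is seen in Fos (chr12:85473794-85473861, plus strand) and Nr4a1 (chr15:101266776-101266843, plus strand), the latter with 2 copies in the stretch shown.
Fos: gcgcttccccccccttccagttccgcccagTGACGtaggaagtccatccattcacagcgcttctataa
Nr4a1: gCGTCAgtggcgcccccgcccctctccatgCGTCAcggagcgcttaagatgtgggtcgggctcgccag

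Of the 10 genes, 3 were called at a Benjamini-Hochberg adjusted p below 0.05 in edgeR's quasi-likelihood test: Sik1, Sik3 and Crtc1. All 3 fell in Abcc4-/- and 0 rose, where 17.3% of all tested genes were called, 8.68% lower and 8.61% higher. The CPM of 7 of the 10 genes did not overlap between the genotypes, all 7 being lower in Abcc4-/-. Of all tested genes, 36.8% did not overlap, with 18.3% lower in Abcc4-/- and not overlapping. The 7 were the 3 kinases, the 3 coactivators and Crebbp. The median log2 fold change of the 10 genes was -0.17, and that of all tested genes was 0.00. Sik1 stood far from the other 9, whose changes were at most 1.24-fold.

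**Figure D1:**
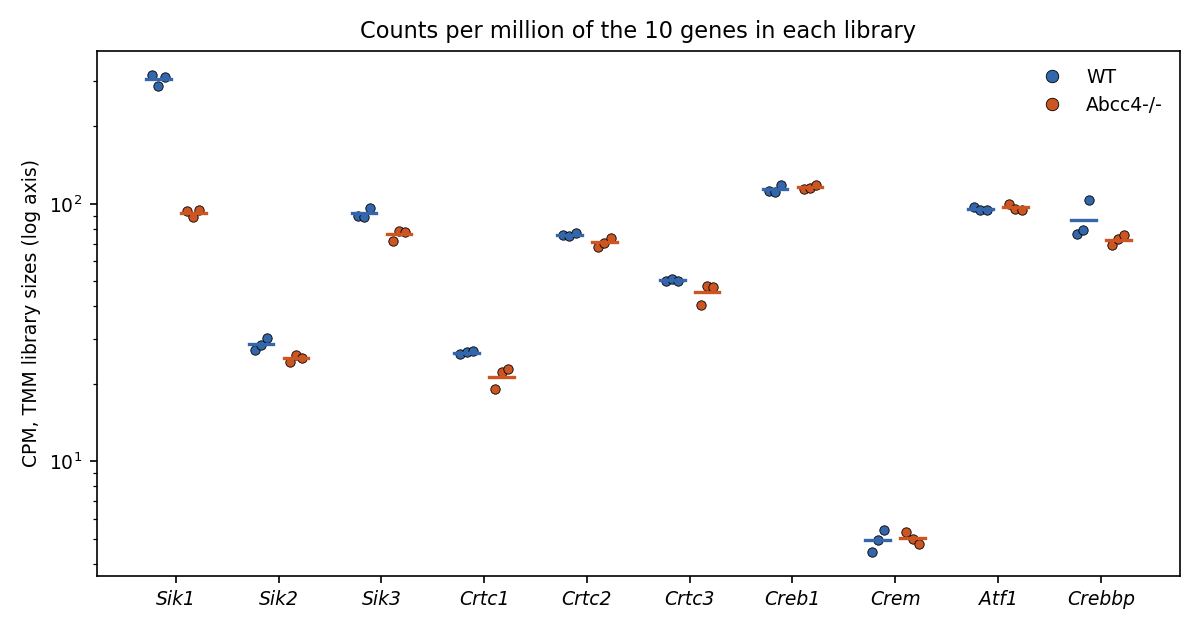
CPM on TMM library sizes (log axis) for each of the 10 genes, with 1 point per library and a bar at the group mean. The 3 Abcc4-/- values of Sik1 lie between 88.7 and 94.9 CPM, below WT values of 287 to 318, while the points of Creb1, Crem and Atf1 overlap between the genotypes.

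Sik1 (ENSMUSG00000024042.7, chr17:31844250-31855804, minus strand, GRCm38) encodes the kinase of the family that is induced by cyclic AMP. It stood at 318, 287 and 311 CPM in the WT libraries and at 93.6, 88.7 and 94.9 CPM in the Abcc4-/- libraries. All 3 WT libraries were high and all 3 mutant libraries were low, with a wide gap and little spread inside either group. The mean fell from 306 ± 16.1 to 92.4 ± 3.28 CPM (SD, n = 3 each), which is 30.2% of the WT level. The log2 fold change was -1.73 (SE 0.06, 95% interval -1.85 to -1.60), a 3.31-fold difference, with an edgeR adjusted p of 4.15e-08. Sik1 had the smallest p of all 16493 genes tested, although it ranked 138 by the size of its change. It was called in all 17 alternative analyses, with log2 fold changes between -1.97 and -1.70.

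Sik3 (chr9:46012820-46224194, plus strand), the family member with broad expression, stood at 90.2, 89.0 and 96.5 CPM in WT and at 71.9, 78.7 and 78.2 CPM in Abcc4-/-. Every mutant library lay below every WT library. The mean fell from 91.9 ± 4.0 to 76.3 ± 3.79 CPM (SD, n = 3 each), with a log2 fold change of -0.27 (SE 0.06, interval -0.39 to -0.15, edgeR adjusted p = 0.00677). Its promoter, printed for its 3 short motifs, is the richest in them among the 7 windows found. This change of 1.20-fold was called in all 17 alternatives, with adjusted p between 0.000357 and 0.0311.

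Sik2 (chr9:50892801-51009073, minus strand), first studied in fat tissue, stood at 27.0, 28.2 and 30.2 CPM in WT and at 24.3, 25.9 and 25.3 CPM in Abcc4-/-. The groups did not overlap, but the test missed the threshold (log2 fold change -0.18, interval -0.31 to -0.05, edgeR adjusted p = 0.0594). With the replicate number as a block the adjusted p of Sik2 was 0.0467. The gene overlaps Ppp2r1b on the opposite strand, and both deposited tables are marked as stranded.

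**Figure D2:**
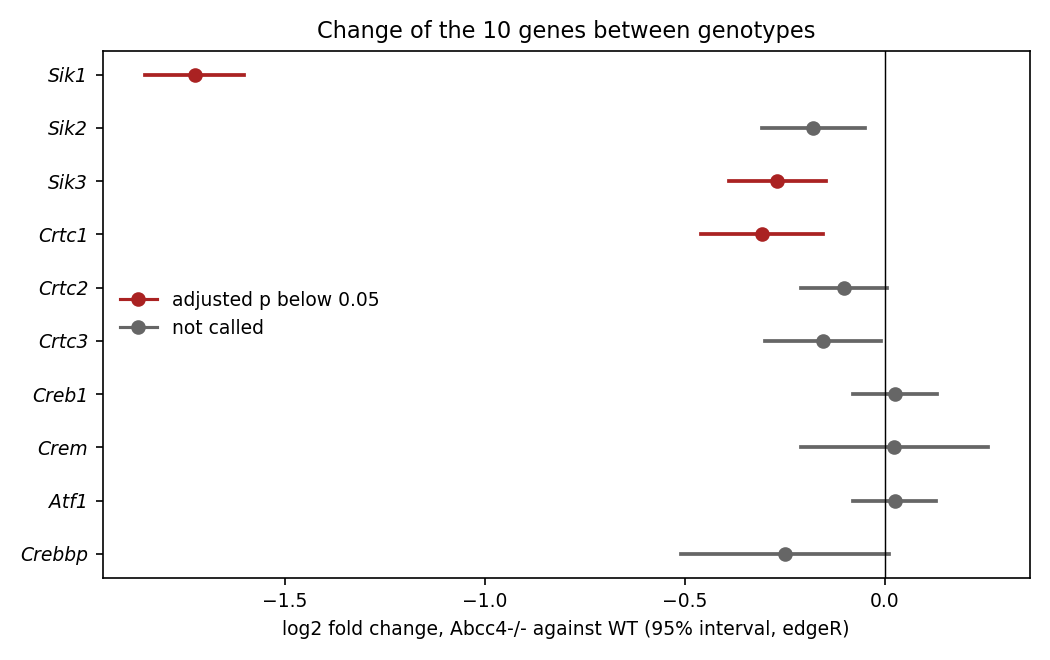
Fitted log2 fold change of Abcc4-/- against WT for the 10 genes, with 95% intervals from edgeR and filled red where the adjusted p was below 0.05. Sik1 lies at -1.73, Sik3 and Crtc1 at -0.27 and -0.31, and the intervals of Creb1, Crem and Atf1 span 0.

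Levels can be set side by side between genes only per length, so the make-up of each family was read from the deposited TPM values. TPM is the count divided by transcript length, scaled to the same total in each library. In WT, Sik1 was the leading kinase at 120, 107 and 123 TPM, with Sik3 at 28.1, 27.9 and 30.9 TPM and Sik2 at 10.1, 10.4 and 12.7 TPM. In Abcc4-/-, Sik1 stood at 29.4, 28.3 and 31.3 TPM, Sik3 at 21.4, 22.7 and 23.1 TPM and Sik2 at 7.85, 8.82 and 9.04 TPM. The order of the 3 kinases was the same in each of the 6 libraries, but the lead of Sik1 over Sik3 narrowed.

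The share of Sik1 in the summed TPM of the kinases was 75.8, 73.6 and 73.8% in WT and 50.2, 47.3 and 49.3% in Abcc4-/-. The mean share was 25.5 percentage points lower in the mutants, at 48.9 ± 1.47% against 74.4 ± 1.19% (SD, n = 3 each), and the groups did not overlap. An exact two-sided permutation test gave p = 0.1, the smallest that 3 against 3 allows, or 0.167 adjusted over the 5 shares tested. The shares of Sik3 (18.5 to 36.9%) and Sik2 (7.07 to 14.1%) were higher by construction as that of Sik1 was lower. The summed TPM of the 3 kinases was 157 ± 10.9 in WT and 60.6 ± 2.48 in Abcc4-/-.

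**Figure D3:**
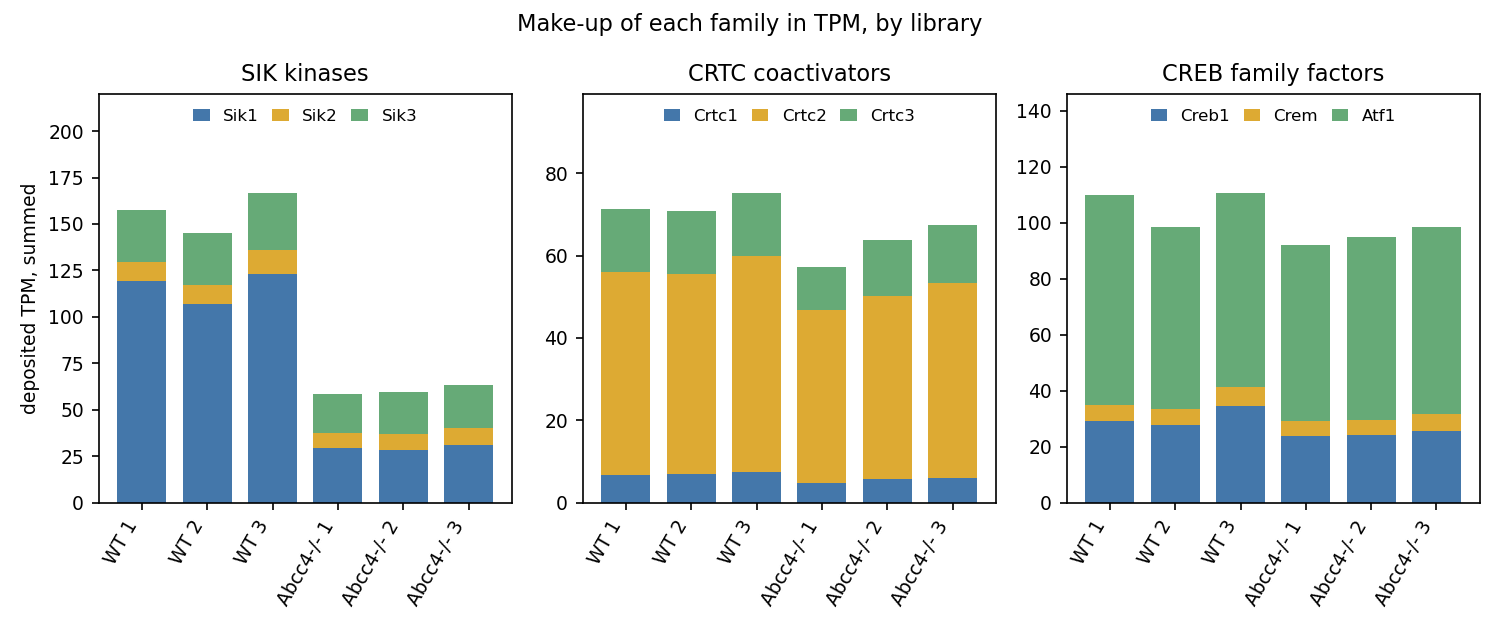
Summed TPM of the kinases, the coactivators and the CREB factors in each of the 6 libraries, with the bar split by gene. The blue Sik1 segment takes 73.6 to 75.8% of the kinase bar in WT and 47.3 to 50.2% in Abcc4-/-, while Crtc2 and Atf1 take most of the other bars in every library.

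The deposited counts and TPM together also gave the mean length of the transcripts to which the reads of a gene were assigned. For Sik1 this length was 3773, 3790 and 3746 bases in WT and 4192, 4233 and 4222 bases in Abcc4-/-. The 2 groups were far apart, and every mutant library lay above every WT library. The mean length was 11.8% greater in Abcc4-/- (log2 ratio 0.16, 95% interval 0.14 to 0.18, limma adjusted p = 0.0210). The test covered 10841 genes with several transcripts that passed the filter on low counts and a floor on TPM. Only 0.111% of those genes were called, and 0.0738% were called longer. The call was lost when any 1 library was left out, with adjusted p between 0.0663 and 0.151 and log2 ratios between 0.16 and 0.17.

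The annotation lists 4 Sik1 transcripts: the coding transcript of 4521 bases, models with a retained intron of 2554 and 852 bases, and a processed transcript of 301 bases. If these 4 models are the only source of reads, the shorter models held at least 16.9 to 17.9% of Sik1 TPM in the WT libraries and at least 6.65 to 7.59% in the mutant libraries. The corresponding upper limits were 37.2 to 39.4% and 14.6 to 16.7%, so the ranges of the genotypes overlapped at neither limit. These shares rest on how the authors' quantification divided reads among the models.

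**Figure D4:**
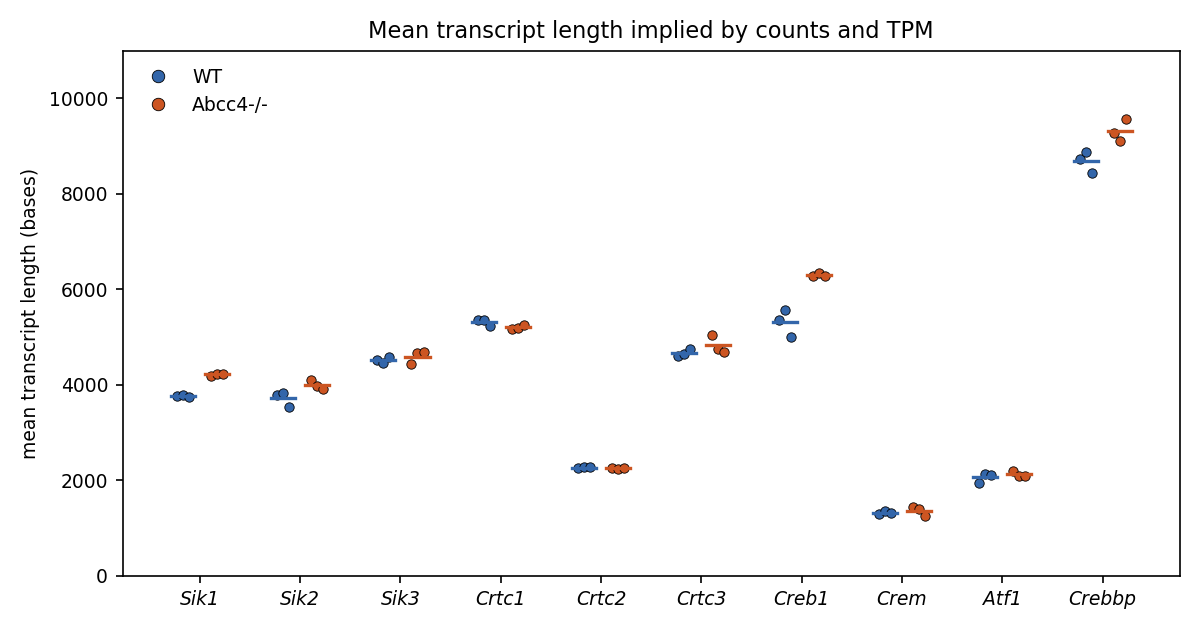
Mean transcript length in bases implied by the deposited counts and TPM, with 1 point per library and a bar at the group mean. The 3 mutant points of Sik1 (4192 to 4233 bases) and Creb1 (6279 to 6337 bases) lie above all WT points, and only the Sik1 difference was called.

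The other genes closest to Sik1 in their profile over the 6 libraries were found by the root mean square difference in centred log2 CPM among 11111 genes. The nearest 4 were Ets2 (0.0924), Cdkn1a (0.101), Trem1 (0.112) and Tnfsf9 (0.120). Ets2, an ETS transcription factor, had a mean of 96.7 ± 11.9 CPM over the WT and 29.3 ± 1.38 over the Abcc4-/- libraries (SD, n = 3 each), a log2 fold change of -1.73. Cdkn1a, the cell cycle inhibitor p21, had a log2 fold change of -1.79, and Trem1, a receptor of myeloid cells, one of -1.51. The value of Tnfsf9, a ligand of the tumour necrosis factor family, was -1.67. Their size and direction of change follow from the choice by likeness to Sik1 and are a description, with no test.

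The coactivators differed less than Sik1. Crtc1 (chr8:70382355-70439579, minus strand), best known from neurons, stood at 26.1, 26.6 and 26.8 CPM in WT and at 19.1, 22.2 and 22.8 CPM in Abcc4-/-. The WT libraries were tightly grouped and all mutant libraries lay below them. The mean fell from 26.5 ± 0.342 to 21.4 ± 2.01 CPM (SD, n = 3 each), with a log2 fold change of -0.31 (SE 0.07, interval -0.46 to -0.16, edgeR adjusted p = 0.0112). The call was lost on the 3 TPM scales, with limma adjusted p of 0.0592, 0.0585 and 0.0902.

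Crtc2 (chr3:90254163-90264125, plus strand), the coactivator known for cyclic AMP responses in liver, stood at 75.5, 75.4 and 77.5 CPM in WT and at 68.4, 70.7 and 73.6 CPM in Abcc4-/-. Its log2 fold change was -0.10 (interval -0.21 to 0.01, edgeR adjusted p = 0.183). Crtc3 (chr7:80586627-80688877, minus strand) stood at 50.2, 51.3 and 50.1 CPM in WT and at 40.4, 48.2 and 47.5 CPM in Abcc4-/-. The first mutant library was the low one, and Crtc3 was not called (log2 fold change -0.15, interval -0.30 to -0.01, edgeR adjusted p = 0.139). Without that library its log2 fold change was -0.08 (edgeR adjusted p = 0.375). Crtc3 shares its strand with the gene model Gm44931, so its reads could be split between the 2.

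Per length, Crtc2 was the leading coactivator in every library. It held 69.0, 68.5 and 69.6% of CRTC TPM in WT and 73.2, 69.7 and 70.3% in Abcc4-/-. Crtc3 held 21.2 ± 0.663% and 20.2 ± 1.62%, and Crtc1 held 9.73 ± 0.200% and 8.76 ± 0.274% (SD, n = 3 each). The shares of Crtc2 and Crtc1 did not overlap between the genotypes, and each exact two-sided permutation test gave p = 0.1, the smallest possible. For Crtc3 the exact permutation p was 0.4. The summed TPM of the coactivators was 72.5 ± 2.40 in WT and 62.8 ± 5.20 in Abcc4-/-. Their summed CPM was 152 to 154 in WT and 128 to 144 in Abcc4-/-. TPM was lower in Abcc4-/- for genes in general, with a median difference of -0.063 on log2(TPM + 1).

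The DNA-binding factors showed no called difference. Creb1 (chr1:64532645-64604548, plus strand), the founding member of the family, stood at 113, 111 and 118 CPM in WT and at 115, 115 and 118 CPM in Abcc4-/-. Atf1 (chr15:100227819-100261244, plus strand), its close relative, stood at 97.8, 94.4 and 94.4 CPM in WT and at 100, 96.0 and 95.2 CPM in Abcc4-/-. For both genes the libraries of the genotypes were interleaved. The log2 fold change was 0.03 for Creb1 (interval -0.08 to 0.13, edgeR adjusted p = 0.770) and 0.02 for Atf1 with the same tool (interval -0.08 to 0.13, adjusted p = 0.774). On the 3 TPM scales the log2 differences were negative for both genes and none was called. They were -0.30, -0.31 and -0.21 for Creb1, and -0.10, -0.10 and -0.02 for Atf1. For Creb1 the smallest limma adjusted p on these scales was 0.0520, near the threshold. Its TPM was 27.6 to 34.6 in WT and 23.7 to 25.8 in Abcc4-/-.

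Crem, which encodes activators and, from an internal promoter, the inducible repressor ICER, was the scarcest of the factors. It stood at 4.46, 4.97 and 5.44 CPM in WT and at 5.34, 4.98 and 4.79 CPM in Abcc4-/-. The groups overlapped fully, on 245 to 296 counts per WT library and 354 to 492 per mutant library. The log2 fold change was 0.02 (interval -0.21 to 0.26, edgeR adjusted p = 0.913), and it was negative on the 3 TPM scales (-0.10 to -0.0008). The annotation lists 39 Crem transcripts, 32 of them coding, and gene-level values do not separate ICER from the activators. The mean Crem transcript length was 1318 ± 29.6 bases in WT and 1361 ± 93.4 bases in Abcc4-/- (SD, n = 3 each, limma adjusted p = 0.822).

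The mean length of the transcripts assigned to Creb1 was 5366, 5575 and 5001 bases in WT and 6283, 6337 and 6279 bases in Abcc4-/-. The WT libraries were spread widely, the mutant libraries were close together, and all mutant values were above all WT values. The Creb1 length was 18.7% greater in the mean but was not called (limma adjusted p = 0.120). In TPM, which is divided by that length, Creb1 stood at 30.5 ± 3.63 in WT and 24.5 ± 1.10 in Abcc4-/- (SD, n = 3 each). The lengths of 3 further genes did not overlap between the genotypes and were not called: Crebbp (8683 to 9318 bases in the mean, limma adjusted p = 0.226) and Sik2 (3714 to 3991 bases, limma adjusted p = 0.327) were longer, and Crtc2 (2264 to 2247 bases, limma adjusted p = 0.508) was shorter in Abcc4-/-. With Sik1 and Creb1, 5 of the 10 genes did not overlap, 4 of them longer, where 21.0% of the 10841 genes did not overlap, 15.0% longer and 6.07% shorter. Of all 10841 length ratios, 60.9% were above 1.

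Atf1 held the largest share of the summed TPM of the 3 factors, at 65.7 ± 2.93% in WT and 68.3 ± 0.586% in Abcc4-/-. Creb1 held 28.7 ± 2.33% and 25.8 ± 0.385%, and Crem held 5.65 ± 0.641% and 5.87 ± 0.204% (SD, n = 3 each). The share of Crem overlapped between the genotypes (exact two-sided permutation p = 0.8).

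Crebbp (chr16:4081328-4213997, minus strand), the acetyltransferase that binds phosphorylated CREB, stood at 76.6, 79.3 and 103 CPM in WT and at 69.5, 73.1 and 75.5 CPM in Abcc4-/-. The third WT library was high, and the lowest WT library was close to the highest mutant library. The mean over the WT libraries was 86.4 ± 14.7 CPM and that over the mutant libraries 72.7 ± 3.03 (SD, n = 3 each), with a log2 fold change of -0.25 (interval -0.51 to 0.01, edgeR adjusted p = 0.178). Without the third WT library the log2 fold change of Crebbp was -0.10 (edgeR adjusted p = 0.240), and with the replicate number as a block the adjusted p was 0.0437. Crebbp shares its strand with the gene model Gm37186, so its reads could be split between the 2.

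Across all 10 genes in WT, the order of TPM was Sik1 (117 ± 8.54), Atf1 (69.8), Crtc2 (50.1), Creb1 (30.5), Sik3 (29.0), Crtc3 (15.4), Crebbp (14), Sik2 (11.1), Crtc1 (7.06) and Crem (6.00). Neighbouring values overlapped between libraries for Creb1 and Sik3, Crtc3 and Crebbp, Crebbp and Sik2, and Crtc1 and Crem. In Abcc4-/-, Sik1 (29.7 ± 1.49 TPM) came after Atf1 (64.9) and Crtc2 (44.6), followed by Creb1 (24.5), Sik3 (22.4), Crtc3 (12.7), Crebbp (10.3), Sik2 (8.57), Crem (5.58) and Crtc1 (5.51). There the neighbouring values overlapped for Crtc3 and Crebbp and for Crem and Crtc1.

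The other genes of the pathway were read from 9 lists that hold 68 genes, of which 64 were tested. Of these, 8 rose, 4 fell and 52 were not called, so that 18.8% were called against 17.3% of all tested genes, and their median log2 fold change was 0.01. Upstream of the salt-inducible kinases, 1 of 9 protein kinase A genes rose (the inhibitor Pkig, log2 fold change 0.26) and 1 fell (the inhibitor Pkia, -0.83, at a mean of 0.607 CPM in WT and 0.340 in Abcc4-/-). Among the 5 genes of the LKB1 complex, which activates these kinases, the pseudokinase Stradb rose (0.29). Of 8 tested AMPK-related kinases, the relatives of the salt-inducible kinases, Nuak1 rose (0.48).

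On the CRTC side, the phosphatase subunit Ppp3cc was the 1 calcineurin gene of 4 tested that rose (0.34). None of the 7 genes for 14-3-3 proteins was called, and the smallest p was that of Ywhah (0.13, edgeR adjusted p = 0.151). Class IIa histone deacetylases are further substrates of the salt-inducible kinases and restrain MEF2 factors. Of the 8 genes in that list, Hdac4 rose (0.33) while Mef2a (-0.24) and Mef2c (-0.20) fell.

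Of 10 kinases that phosphorylate CREB, Camk2d (0.37) and Rps6ka2 (0.26) rose and Camk1 fell (-0.24). None of the 3 other acetyltransferase genes was called, Kat2a having the smallest p (-0.13, edgeR adjusted p = 0.125). Of the 10 genes for CREB-related factors, Creb3l1 rose (0.50). The edgeR adjusted p of these 12 called genes lay between 0.00494 and 0.0416. Each of the 12 lost its call in at least 1 of the alternatives. Pkia kept its call in 6 of 16, DESeq2 and thinning being among those that lost it, Camk1 in 9 of 17 and Pkig in 10 of 17. Ppp3cc, Mef2c and Rps6ka2 were called in 12 of 17, Hdac4 in 14, Stradb and Camk2d in 15, and Mef2a in 16. Nuak1 and Creb3l1 were called in 13, and both lost the call without the first Abcc4-/- library.

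**Figure D5:**
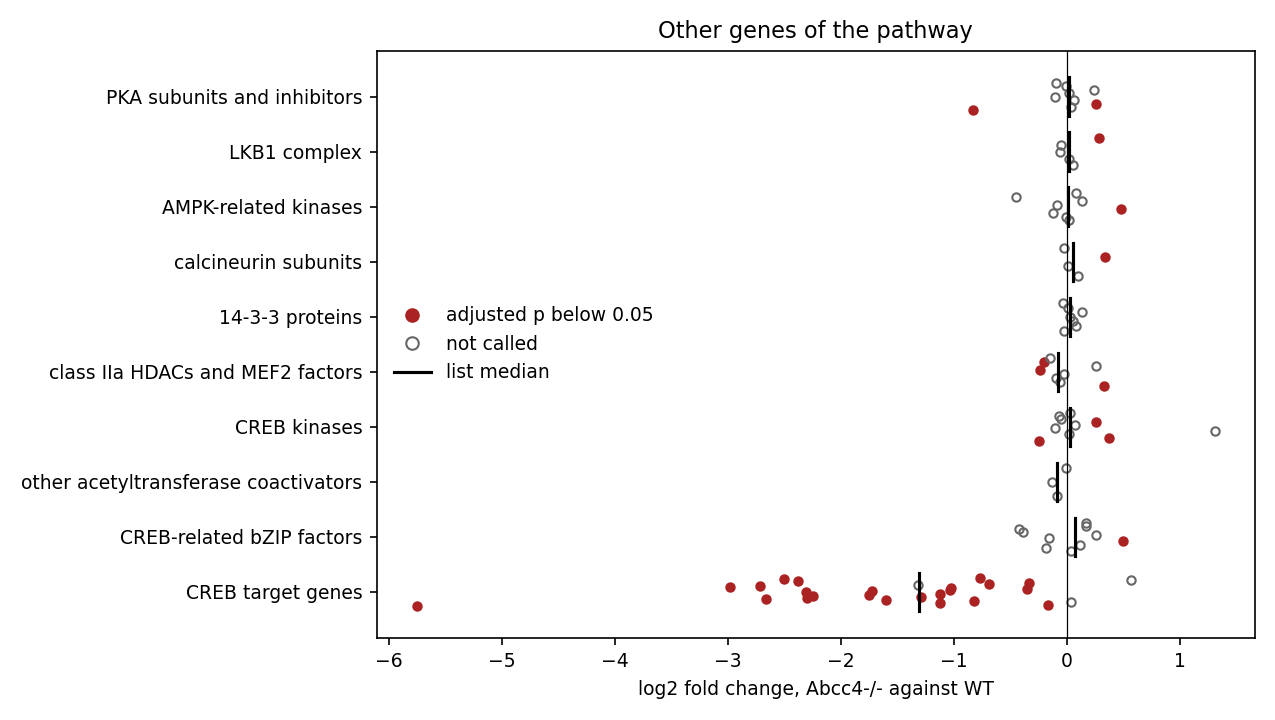
Log2 fold change of Abcc4-/- against WT for the tested genes of each pathway list, with 1 point per gene, filled red where the edgeR adjusted p was below 0.05, and a bar at the list median. The medians of the 9 lists of signalling genes and factors lie between -0.08 and 0.08, and that of the CREB target genes lies at -1.31. The point at the far left is Areg, fitted from counts close to 0 in Abcc4-/-.

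Genes widely listed as CREB targets were lower as a group. Of 29 such genes, 26 were tested: 23 fell, where 8.68% of all tested genes did, 0 rose and 3 were not called. The median log2 fold change of the list was -1.31. This list was put together with earlier results of these samples known, and many of its genes respond to several other signals, so its direction is not independent evidence. The genes with the smallest p were Nr4a2, an orphan nuclear receptor (12.9 ± 2.13 to 1.96 ± 0.142 CPM, log2 fold change -2.71), and Ier2, an immediate early gene (587 ± 24.1 to 269 ± 6.81 CPM, -1.12). They were followed by Btg2 (-1.12), an antiproliferative factor, Junb (-1.03), Egr2 (-2.30), Nr4a1 (-2.98), Cebpb (-0.82) and Nfil3 (-1.03). Each of these 8 was called in all 17 alternatives (edgeR adjusted p between 7.71e-07 and 1.69e-05 in the main analysis). The targets that were not called were Nr4a3, Ppargc1a and the cyclin gene Ccna2 (220 ± 6.11 CPM in WT, 227 ± 17.9 in Abcc4-/-, SD, n = 3 each). Among the genes whose promoters hold the full element, the log2 fold change was -1.12 for Btg2 and -1.60 for Dusp1. Areg, the other gene with the full element, had 36, 24 and 26 counts in WT and 1, 1 and 0 in Abcc4-/-, and its fitted value of -5.75 depends on the prior count. Among the promoters shown for the short motif, the value was -0.27 for Sik3, -1.29 for Fos, -2.98 for Nr4a1 and 0.02 for Atf1. The promoters shown were picked, so these values do not relate motif to change. Tested targets whose window lacked even the short motif were Ptgs2 (-2.50), Irs2 (-1.72), Mcl1 (-0.35) and Pde4d (-0.33). Targets with the short motif also include Bcl2 (-0.17) and Ppargc1a (0.57, not called). Whether motif and change go together was not tested.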

How the data were processed

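RNA-seq was analysed for 3 WT and 3 Abcc4-/- samples. Libraries came from a stranded mRNA kit with paired-end reads, per the labels' protocols. STAR 2.7, RSEM 1.3.1 and the mm10 build are named in the submitters' processing notes. No annotation release is named there. The authors deposited expected counts per gene, not normalized, and TPM, scaled within each sample. Both tables hold 92 spike-in entries at 0 counts, which were left out.

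Groups came from the genotype labels. The deposited expected counts were rounded and tested for all genes with edgeR 4.0.16 in R 4.3.3 (TMM, the default filter on low counts, robust quasi-likelihood test, Benjamini-Hochberg adjusted p below 0.05). CPM used TMM library sizes, and SE was taken as the fold change over the root of its F statistic. At these depths, 3 counts are 0.0302 to 0.0595 CPM. Counting error weighs more on genes with few counts, such as Areg (24 to 36 per WT library) and Crem (245 to 296). Shares of TPM within a family were compared with exact permutation tests.

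Mean transcript length was solved from count and TPM on genes with 1 transcript in GENCODE M21 (1168 to 1256 per library, 100% fitted within 1%). Short genes and genes low in TPM were left out of that fit. Lengths were compared with limma 3.58.1 over genes with several transcripts that passed the filter on low counts and a floor on TPM. The length step was added after seeing the data. Promoter sequences are from RefSeq (GRCm38.p6) and gene positions from GENCODE M21 (GRCm38).

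The 10 genes and all lists were chosen with earlier results of these data known. Named genes were the 10, up to 4 called genes per pathway list with the smallest p (8 for CREB targets, and the gene with the smallest p where none was called), and the 5 profiles nearest to Sik1, among genes at 1 or more in mean log2 CPM, of which 1 is not reported here. Abcc4 and the targets that were not called were named outside that rule, after their values were seen. So were Itga2b, Cd4, Hba-a1, Dusp1, Areg, Fos, Ptgs2, Irs2, Mcl1, Pde4d and Bcl2. Alternatives were other scalings, DESeq2 1.42.0, limma-voom, other filters, thinning, log2(TPM + 1) and log2(TPM + 0.1), which understate changes of low genes, the replicate block and each library left out. Centred TPM was added after seeing the data. The edgeR test was checked on simulated counts in which 200 genes were changed, fewer than the 2852 called here. No such check is reported for the limma length test or the permutation tests.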

Additional observations from a re-analysis of the deposited data

How the results depend on the processing

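Sik1 and Sik3 kept their direction and their call in all 17 alternatives. Of the 10 genes, 3 were called in the main analysis and 5 with the replicate number as a block, all 5 lower, since Sik2 and Crebbp passed. Samples with the same number did not deviate together (correlations -0.046, -0.026 and -0.014), and the first WT library correlated best with the second Abcc4-/- library, so the numbers were not taken to pair the samples. With the block 3157 of all genes were called, against 2852 without it. On log2(TPM + 1) 599 genes were called higher and 1512 lower, on log2(TPM + 0.1) 602 and 1552, and on centred log2(TPM + 1) 1079 and 891, against 1420 and 1432 in the main analysis. The median of all genes was -0.063 and -0.081 on the first 2 of these scales. Leaving out 1 library gave 1760 to 2415 called genes, 823 to 1247 higher and 897 to 1265 lower, with 1760 without Abcc4-/- replicate 2 and 1821 without Abcc4-/- replicate 1.

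The log2 fold changes of the 3 CREB factors turned negative on the 3 TPM scales, in the order log2(TPM + 1), log2(TPM + 0.1) and centred: -0.30, -0.31 and -0.21 for Creb1, -0.086, -0.10 and -0.0008 for Crem, and -0.10, -0.10 and -0.015 for Atf1. TPM is divided by the mean transcript length, whose log2 ratio was 0.25 for Creb1, 0.044 for Crem and 0.044 for Atf1. The part of these lengths and of the median of all genes in the shift was not tested. Leaving out 1 library moved the Crem value between -0.047 and 0.10. The share of Crem in the CREB factors changed by -0.0005 percentage points in CPM in place of TPM, and by -0.135 to 0.494 when 1 library was left out, against 0.215. The number of CREB targets called lower was 19 to 24 over the alternatives. With 3 samples a group, no single share can reach p below 0.1, and the length call for Sik1 needs all 6 libraries.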
